A study of Mus musculus with 34 samples.

Results

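The 10 genes described here encode the muscle acetylcholine receptor and the proteins that build the neuromuscular junction around it: the receptor subunits Chrna1, Chrnb1, Chrnd, Chrne and Chrng, the organisers Musk, Lrp4, Dok7 and Rapsn, and the enzyme Ache. They were chosen by name, with earlier results of these data known, from the 46071 genes of the count table. All 10 were found by Ensembl identifier and passed the filter on low counts. The measurements are RNA-seq counts from powdered, mixed quadriceps and gastrocnemius muscle of male mice on a mixed strain background, in 34 libraries. Every gene is a protein-coding gene of the mouse genome build GRCm38.

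The knockout groups were MIRKO (4 libraries), lacking the insulin receptor in muscle, MIGF1RKO (5 libraries), lacking the IGF-1 receptor, MIGIRKO (6 libraries), lacking both receptors, and QKO (7 libraries), lacking both receptors and the transcription factors FoxO1, FoxO3 and FoxO4. Each has floxed littermates of its own colony as controls, which carry the floxed alleles without the recombinase and are named IRlox (3 libraries), IGFRlox (4 libraries), IRIGFRlox (3 libraries) and Qlox (2 libraries). The series' design text names Acta1-Cre, driven by the promoter of skeletal muscle actin, for MIRKO, MIGIRKO and QKO; for MIGF1RKO it names none. Deletion by Acta1-Cre acts in muscle fibers, so cells of nerve, vessel, fat and connective tissue in the same powder keep the targeted genes. The labels give no ages. MIGIRKO and IRIGFRlox mice were heterozygous for a variant of the mitochondrial gene Nnt, while MIRKO, IRlox, QKO and Qlox mice were mixed.

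The junction is where a motor axon meets a muscle fiber. Agrin, released by the nerve, binds LRP4 on the fiber, and the complex activates the kinase MuSK with the help of the adaptor DOK7; rapsyn then holds the acetylcholine receptors in dense clusters under the nerve ending. The adult receptor is built from the alpha, beta, delta and epsilon subunits, and the fetal receptor has gamma in place of epsilon. In innervated adult muscle the subunit genes are transcribed mainly by the few nuclei under the synapse; after denervation, nuclei along the whole fiber transcribe Chrna1, Chrnb1, Chrnd, Chrng and Musk, and Chrng, silent in adult fibers, is made again.

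Sequences just upstream of 4 receptor genes are shown because CAGCTG and CANNTG, the E-box letters that myogenic factors such as myogenin can bind, and CCGGAA, the N-box described in synaptic promoters, have been studied in these genes. The bases are the 250 before the RefSeq start site (GRCm38.p6), 5′ to 3′ along the gene, with every CANNTG and every CCGGAA in capitals; CANNTG reads the same on both strands, and CCGGAA was searched on both. No E-box overlapped an N-box. The Chrng stretch lies inside the longer gene model, downstream of its first annotated start.
Chrna1 (chr2:73580339-73580588, minus strand): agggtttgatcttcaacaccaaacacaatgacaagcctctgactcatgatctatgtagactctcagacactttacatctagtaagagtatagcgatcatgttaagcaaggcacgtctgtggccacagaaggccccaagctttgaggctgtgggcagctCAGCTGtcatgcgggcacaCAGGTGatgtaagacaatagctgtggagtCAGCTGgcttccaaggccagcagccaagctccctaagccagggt
Chrng (chr1:87205561-87205810, plus strand): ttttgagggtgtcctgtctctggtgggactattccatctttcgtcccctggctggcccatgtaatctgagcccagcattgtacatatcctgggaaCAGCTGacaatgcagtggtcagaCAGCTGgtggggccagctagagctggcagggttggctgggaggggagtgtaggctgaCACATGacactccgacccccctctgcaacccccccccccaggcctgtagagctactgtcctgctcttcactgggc
Chrnb1 (chr11:69795938-69796187, minus strand): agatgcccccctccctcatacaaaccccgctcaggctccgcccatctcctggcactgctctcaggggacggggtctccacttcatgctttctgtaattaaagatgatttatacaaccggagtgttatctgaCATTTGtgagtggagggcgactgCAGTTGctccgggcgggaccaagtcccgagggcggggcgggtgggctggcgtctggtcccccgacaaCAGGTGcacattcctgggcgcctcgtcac
Chrne (chr11:70619195-70619444, minus strand): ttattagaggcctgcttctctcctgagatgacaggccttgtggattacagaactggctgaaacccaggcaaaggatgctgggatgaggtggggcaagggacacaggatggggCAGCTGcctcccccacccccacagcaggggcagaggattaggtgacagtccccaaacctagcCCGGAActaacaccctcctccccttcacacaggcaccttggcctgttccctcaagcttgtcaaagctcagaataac

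Over the full window of 300 bases, which adds the 50 after the start, Chrna1 and Chrng each held CAGCTG at 2 places, against 1.9% of the 32851 windows of all genes with 2 or more. Chrne held 1 CAGCTG and 1 CCGGAA, which 16.3% and 14.9% of all windows held at least once. Chrnb1 held no CAGCTG but 3 other CANNTG, and 72.3% of all windows held at least 1 CANNTG. Windows were given for 7 of the 10 genes, and Chrnd, Lrp4 and Rapsn had none. These are matches of letters only.

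Total counts per library ran from 1499025 in 1 QKO library to 7581198 in 1 IRIGFRlox library. Markers of muscle fibers, such as Acta1, Ckm and Myh4, summed to between 65400 CPM in MIGIRKO and 208000 CPM in QKO at the extremes, where CPM is the count per 1000000 counts of the scaled library total. Insr, which encodes the insulin receptor, was at 27.8 to 69.8 CPM in the 3 knockout groups that target it and at 141 to 191 CPM in their controls. Igf1r, which encodes the IGF-1 receptor, was at 7.57 to 11.2 CPM in MIGF1RKO, against 13.5 to 20.4 CPM in IGFRlox, and its 15.1 to 25.7 CPM in MIGIRKO overlapped the 16.5 to 20.3 CPM of IRIGFRlox, so its deletion was not visible there; the MIGF1RKO difference was not called (-0.75 ± 0.21, adjusted p = 0.10) and that of QKO was (-1.09 ± 0.25, adjusted p = 0.027). In QKO, Foxo1 (-2.98 ± 0.36) and Foxo4 (-4.57 ± 0.19) were lower and Foxo3 was not called (0.29 ± 0.27). In correlations of log2 CPM over genes, which are no replicates, the library labelled MIRKO 4 was closest to MIGIRKO 3 (Pearson's r 0.981), the library labelled MIGIRKO 6 to MIRKO 3 (0.973), and QKO 6 to the library labelled MIGIRKO 6 (0.961). For Chrna1, Chrnb1, Chrnd and Chrng the first 2 of these libraries also lay in or near the range of each other's group. A closest library from another group was also found for the other MIRKO libraries and for further MIGIRKO, QKO and floxed libraries. The correlations alone therefore do not set any library apart. The libraries labelled MIRKO 4 and MIGIRKO 6 are called the 2 doubtful libraries from here on. Results that rest on them are given with and without both. Since their subunit values helped to single them out, calls made without them are no independent support.

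Called genes, meaning those with an adjusted p under 0.05 in edgeR's quasi-likelihood test over all 13646 tested genes, differed in number between the genotypes. In MIGIRKO against IRIGFRlox, 7 of the 10 were called, with Chrna1, Chrnb1, Chrnd, Chrng and Ache higher and Musk and Dok7 lower; of all tested genes 33.7% were called, 17.0% higher and 16.7% lower. In MIRKO against IRlox, 1 was called, Chrna1, against 1.25% of all genes. In MIGF1RKO against IGFRlox, 2 were called, Chrna1 higher and Musk lower, against 0.616% of all genes. In QKO against Qlox, edgeR called 0 of the 10, against 0.506% of all genes (0.0513% higher and 0.454% lower); 1 had an unadjusted p under 0.05, and DESeq2 called 1, Chrng. The median log2 change of the 10 was 0.40 in MIGIRKO, 0.22 in MIRKO, 0.47 in MIGF1RKO and 0.38 in QKO, against medians of 0.04, 0.03, 0.00 and 0.04 over all tested genes. All 10 passed the filter, but Chrng, near 0 in controls, passed through its high groups and so had to differ among groups.

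**Figure D1:**
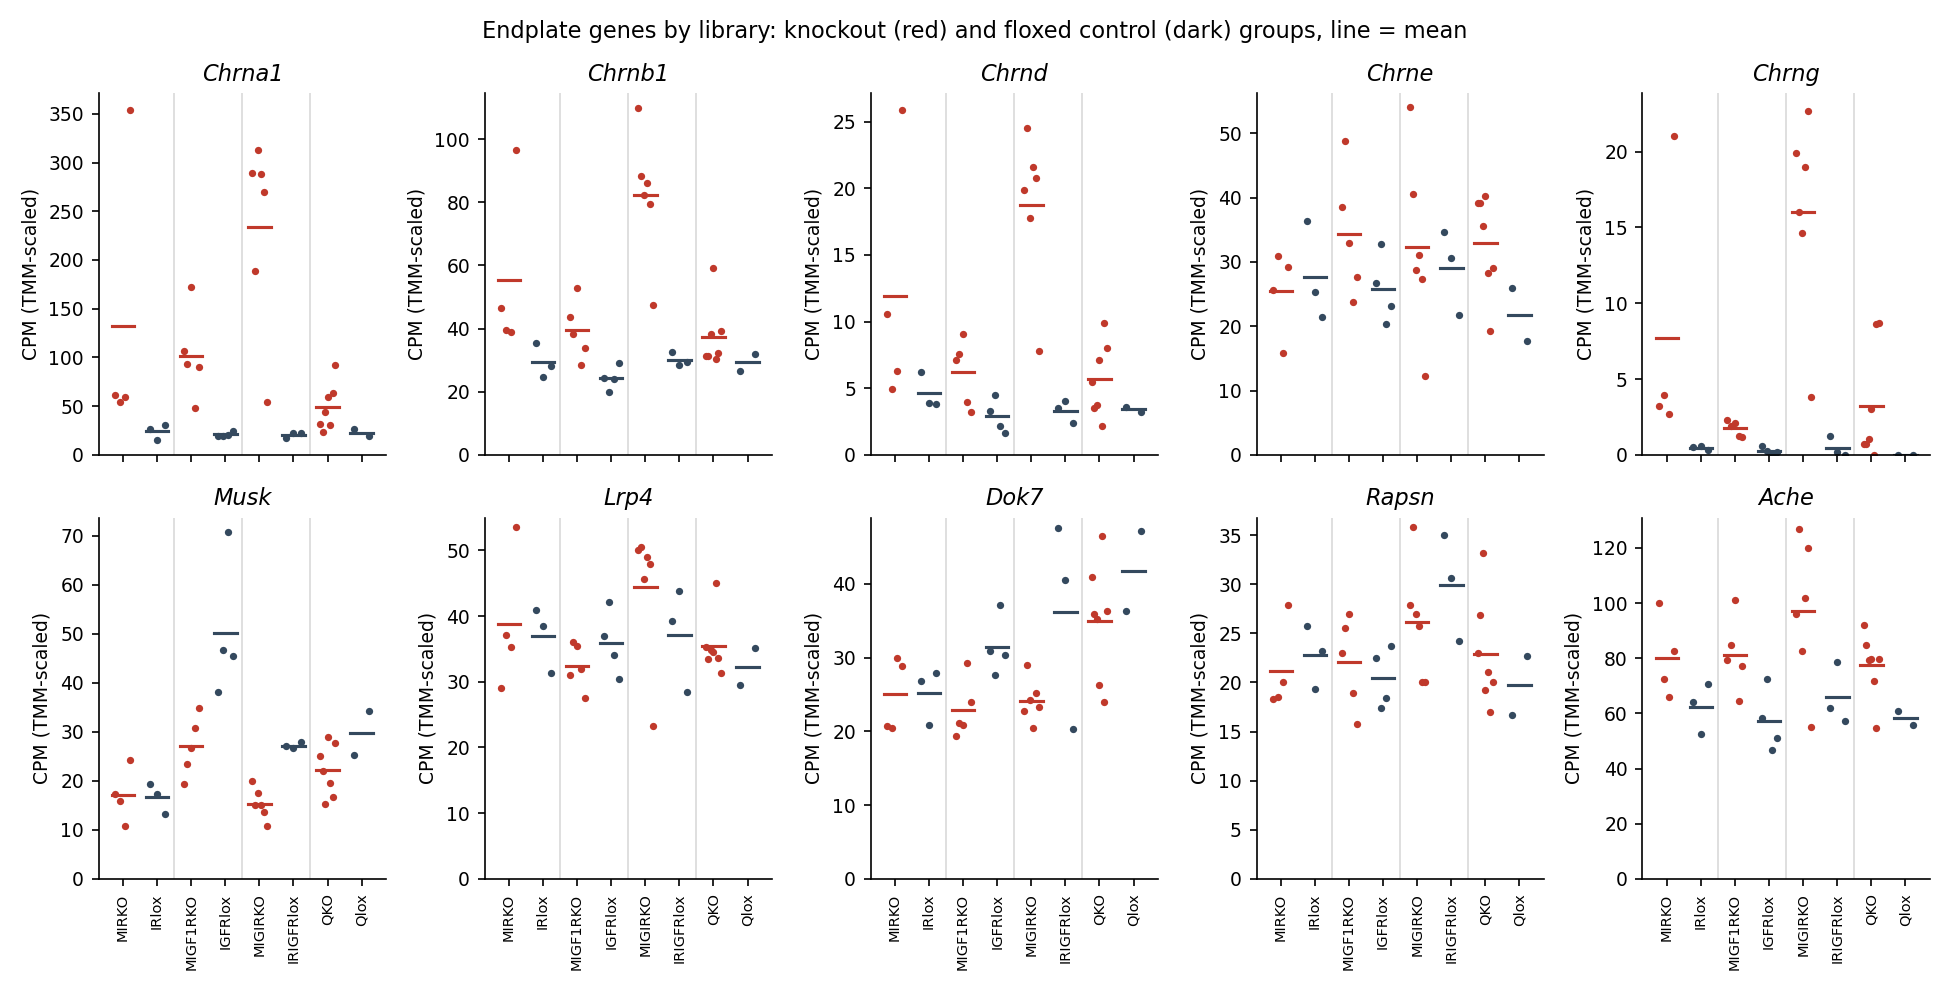
CPM (counts relative to the scaled library total) of each of the 10 genes in all 34 libraries, 1 point per library, with each knockout group in red to the left of its floxed controls in dark and a line at the group mean. Chrna1 in MIGIRKO lies at 53.8 to 313 CPM, above the 17.1 to 22.4 CPM of IRIGFRlox, while Chrne, Lrp4 and Rapsn overlap between knockouts and controls throughout.

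The alpha subunit, whose gene Chrna1 (ENSMUSG00000027107, chromosome 2, 73563215 to 73580338, minus strand) encodes the chain that binds acetylcholine, was the receptor gene called in most comparisons. In MIGIRKO it was at 53.8, 279 and 313 CPM (lowest, median and highest of 6), against 17.1, 22.4 and 22.0 CPM in IRIGFRlox. Every MIGIRKO library was above every IRIGFRlox library, and the lowest was the library labelled MIGIRKO 6. The log2 change was 3.51 ± 0.63 (SE), or 11.4-fold, with an adjusted p of 0.00013. It was 3.72 without the 2 doubtful libraries (adjusted p = 3.6e-08).

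In MIRKO, Chrna1 was at 61.5, 54.0, 59.6 and 354 CPM, against 26.9, 15.7 and 31.1 CPM in IRlox. All 4 MIRKO libraries were above the controls, and the last value, from the library labelled MIRKO 4, was far above the other 3. The log2 change was 2.42 ± 0.62 (adjusted p = 0.046). Without the 2 doubtful libraries it was 1.24 and was not called (adjusted p = 0.18).

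In MIGF1RKO, Chrna1 was at 107, 93.1, 172, 47.6 and 89.7 CPM, against 19.5, 19.7, 20.4 and 24.9 CPM in IGFRlox. The groups did not overlap. The log2 change was 2.26 ± 0.54 (adjusted p = 0.047), close to the threshold, and the call was lost when any library but MIGF1RKO 4 was left out, with log2 changes still between 1.99 and 2.35. A block for the library run also ended it (2.35, adjusted p = 0.051). In the fit without the 2 doubtful libraries, which belong to other groups but enter the shared estimate of spread, its adjusted p was 0.00041.

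In QKO, Chrna1 was at 23.7, 43.6 and 92.3 CPM (lowest, median and highest of 7), against 26.2 and 18.8 CPM in Qlox. The lowest QKO library fell within the controls. The log2 change of 1.16 ± 0.68 was not called (adjusted p = 0.51). Set directly against MIGIRKO, QKO was lower by a log2 change of -2.23 ± 0.42 (adjusted p = 0.00019), although the 2 groups overlapped through the library labelled MIGIRKO 6.

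The beta subunit gene Chrnb1 (ENSMUSG00000041189, chromosome 11, 69784036 to 69795943, minus strand) and the delta subunit gene Chrnd (ENSMUSG00000026251, chromosome 1, 87190607 to 87200070, plus strand) encode structural chains of both the fetal and the adult receptor. In MIGIRKO, Chrnb1 was at 47.4, 84.2 and 110 CPM (lowest, median and highest), against 32.7, 28.5 and 29.3 CPM in IRIGFRlox, a log2 change of 1.45 ± 0.26 (adjusted p = 9.9e-05). Chrnd was at 7.81, 20.3 and 24.5 CPM in MIGIRKO, against 3.51, 4.02 and 2.35 CPM in IRIGFRlox, a log2 change of 2.49 ± 0.47 (adjusted p = 0.00017). Both genes rose with no overlap between the groups, and both kept their calls in all 20 alternatives run.

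In MIRKO, Chrnb1 was at 46.5, 39.4, 38.9 and 96.5 CPM, against 35.5, 24.5 and 28.2 CPM in IRlox, and the groups did not overlap. Its log2 change of 0.92 ± 0.28 was not called (adjusted p = 0.086). Chrnd in MIRKO was at 10.6, 4.93, 6.28 and 25.9 CPM, against 6.19, 3.85 and 3.82 CPM in IRlox, and the groups overlapped (log2 change 1.40 ± 0.48, adjusted p = 0.13). The highest value of each was again that of the library labelled MIRKO 4. In MIGF1RKO the log2 changes were 0.69 ± 0.25 for Chrnb1 (adjusted p = 0.24) and 1.12 ± 0.47 for Chrnd (adjusted p = 0.37). In QKO they were 0.35 ± 0.30 for Chrnb1 (adjusted p = 0.68) and 0.84 ± 0.58 for Chrnd (adjusted p = 0.60). With scaled totals, all libraries and each group's own controls, edgeR thus called neither outside MIGIRKO. DESeq2 (0.92, adjusted p = 0.044) and library totals only (1.22, adjusted p = 0.035) called Chrnb1 in MIRKO. In MIRKO without the 2 doubtful libraries, the log2 changes were 0.50 for Chrnb1 (adjusted p = 0.30) and 0.65 for Chrnd (adjusted p = 0.46). Chrnb1 was called in MIGF1RKO without the 2 doubtful libraries (adjusted p = 0.046), and against all 12 floxed libraries both were called in MIRKO (Chrnb1 0.99, Chrnd 1.79).

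Chrne (ENSMUSG00000014609, chromosome 11, 70614883 to 70619216, minus strand) encodes the epsilon subunit, which marks the adult receptor and is made by synaptic nuclei. Its level was 12.2, 29.9 and 54.1 CPM in MIGIRKO (lowest, median and highest), against 34.6, 30.6 and 21.8 CPM in IRIGFRlox. The control values lie inside the knockout range, with a log2 change of 0.15 ± 0.30 (adjusted p = 0.73). Its log2 change was -0.12 ± 0.33 in MIRKO, 0.43 ± 0.29 in MIGF1RKO and 0.60 ± 0.37 in QKO, none of them called, and no alternative called it. Of the annotated genes that overlap it, 4930544D05Rik runs on the opposite strand and shares no exon base.

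Chrng (ENSMUSG00000026253, chromosome 1, 87204657 to 87212694, plus strand) encodes the gamma subunit of the fetal receptor. Controls held almost none: the 12 floxed libraries had between 0 and 8 Chrng counts each. In MIGIRKO it was at 3.83, 17.5 and 22.7 CPM (lowest, median and highest; 28 to 147 counts per library), against 1.22, 0.191 and 0 CPM in IRIGFRlox. All 6 MIGIRKO libraries were above the controls, and the gene was called (log2 change 4.85 ± 0.97, adjusted p = 0.0004). Summed over libraries, 635 counts in MIGIRKO stood against 9 in IRIGFRlox, a ratio per scaled total of 28.8 with a 95% interval of 15.1 to 63.3 that covers counting error only.

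In MIRKO, Chrng was at 3.24, 3.94, 2.67 and 21.0 CPM, against 0.538, 0.551 and 0.332 CPM in IRlox. The groups did not overlap, but the gene was not called by edgeR (log2 change 4.05 ± 1.09, adjusted p = 0.060). It was called in 6 of 18 alternatives, among them DESeq2 (adjusted p = 0.015), library totals only (adjusted p = 0.044) and all 12 floxed libraries (adjusted p = 4.7e-05), and without the 2 doubtful libraries its log2 change was 2.78 (adjusted p = 0.22). In MIGF1RKO it was at 2.30, 1.90, 2.12, 1.24 and 1.17 CPM, against 0.599, 0.238, 0 and 0.208 CPM in IGFRlox, also without overlap and also not called (log2 change 2.82 ± 1.28, adjusted p = 0.42). These are 4 to 9 counts per MIGF1RKO library, so counting error is large.

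In QKO, Chrng ranged from 0 to 8.68 CPM with a median of 1.07 CPM, and both Qlox libraries were at 0. The 2 high libraries were QKO 6 with 8.60 CPM and QKO 7 with 8.68 CPM, and QKO 5, the shallowest library, had no count. Against a floor of 3 counts over the Qlox group, the QKO mean of 3.25 CPM was at least 8.02-fold higher, but edgeR did not call the gene (adjusted p = 0.24). DESeq2 did (adjusted p = 0.043).

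The balance of fetal and adult chains was described as the share of Chrng in the summed Chrng and Chrne counts of a library, which does not depend on the scaling between libraries. The exons of the 2 genes differ in length (4163 and 1690 bases), so the share is one of counts, not of molecules. It was 23.9% to 45.3% in MIGIRKO, against 0% to 3.40% in IRIGFRlox. In MIRKO it was 11.2%, 11.3% and 14.4% in 3 libraries and 41.9% in the library labelled MIRKO 4, against 1.46% to 2.13% in IRlox.

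In MIGF1RKO the share was 3.75% to 6.03%, against 0% to 2.20% in IGFRlox, so the MIGF1RKO libraries were above their controls but within the 95% Wilson intervals of some of them. QKO libraries fell into a low and a high part: 0% to 6.96% in 5 libraries, and 31.0% and 23.0% in QKO 6 and QKO 7, against 0 of 156 counts in Qlox, which allows a share of up to 1.92%. The shares of MIGIRKO and MIRKO overlapped through the library labelled MIRKO 4.

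**Figure D2:**
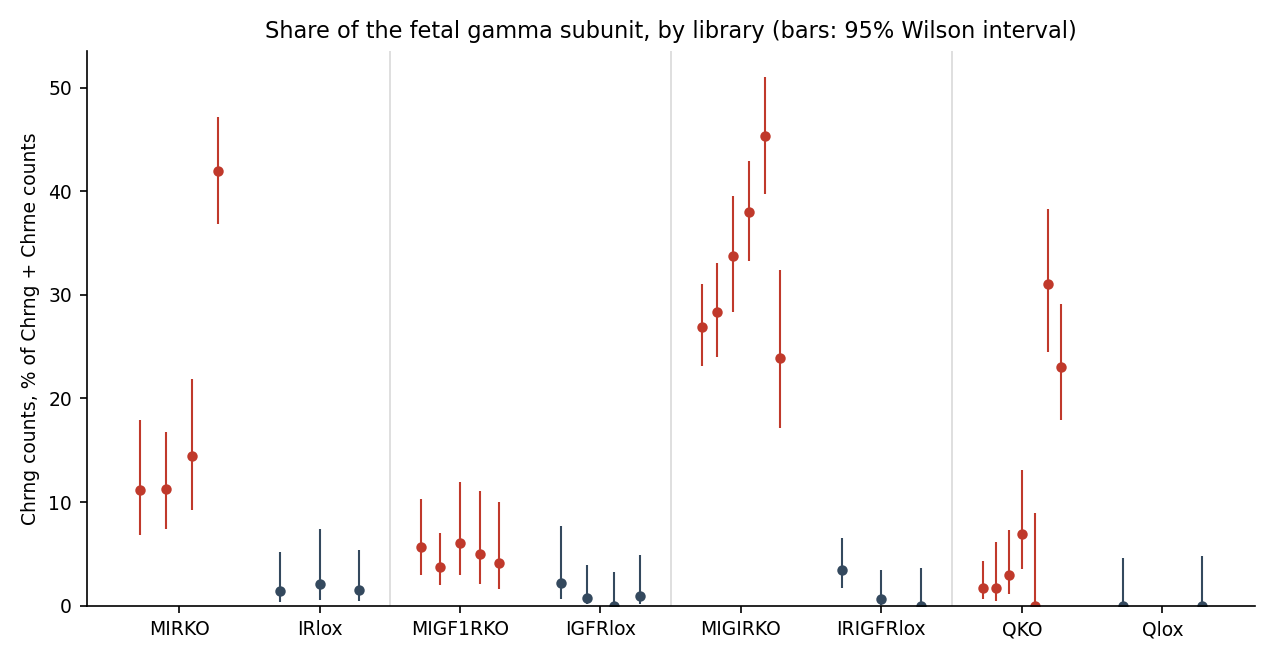
Share of Chrng in the summed Chrng and Chrne counts (percent, y axis) of each library, with 95% Wilson intervals as bars, knockouts in red to the left of their floxed controls in dark. MIGIRKO libraries sit at 23.9% to 45.3%, the library labelled MIRKO 4 at 41.9%, and all floxed libraries at or under 3.40%.

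Musk (ENSMUSG00000057280, chromosome 4, 58285960 to 58374303, plus strand), which encodes the receptor kinase that starts junction assembly, went the other way from the subunits. In MIGIRKO it was at 10.8, 15.0 and 19.9 CPM (lowest, median and highest), against 27.0, 26.6 and 28.0 CPM in IRIGFRlox. All MIGIRKO libraries were below all controls, and the gene was called lower (log2 change -0.83 ± 0.22, adjusted p = 0.0047). In MIGF1RKO it was at 19.4, 23.4, 26.7, 30.8 and 34.9 CPM, against 38.1, 46.6, 70.7 and 45.5 CPM in IGFRlox, again with no overlap (log2 change -0.90 ± 0.21, adjusted p = 0.033). That call was lost in 9 of 20 alternatives, among them a block for the library run (-0.86, adjusted p = 0.081).

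In MIRKO, Musk was at 17.3, 15.8, 10.8 and 24.3 CPM, against 19.4, 17.3 and 13.3 CPM in IRlox, and the groups overlapped (log2 change 0.05 ± 0.26, adjusted p = 0.95). In QKO it was at 15.2, 22.0 and 29.0 CPM (lowest, median and highest), against 25.3 and 34.2 CPM in Qlox (log2 change -0.42 ± 0.26, adjusted p = 0.54). Musk was also the only one of the 10 to differ among the 4 floxed groups (adjusted p = 0.0071, against 0.264% of all genes called), with means of 16.7 ± 3.10 CPM in IRlox, 50.2 ± 14.2 CPM in IGFRlox, 27.2 ± 0.731 CPM in IRIGFRlox and 29.7 ± 6.29 CPM in Qlox (SD, n = 3, 4, 3 and 2). Its change therefore moved with the choice of control: against all 12 floxed libraries, Musk in MIRKO had a log2 change of -0.94 (adjusted p = 0.020), and in MIGF1RKO -0.28 (adjusted p = 0.67). Its sign was negative in all 20 alternatives in MIGIRKO, MIGF1RKO and QKO.

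Dok7 (ENSMUSG00000044716, chromosome 5, 35056766 to 35087839, plus strand) encodes the adaptor that activates MuSK from inside the fiber. In MIGIRKO it was at 20.4, 23.8 and 29.0 CPM (lowest, median and highest), against 47.6, 40.6 and 20.3 CPM in IRIGFRlox. The third control was as low as the lowest knockout library, and the call (log2 change -0.59 ± 0.20, adjusted p = 0.021) was lost without IRIGFRlox 1 (-0.34, adjusted p = 0.27) or IRIGFRlox 2 (-0.50, adjusted p = 0.10). Its log2 change was -0.01 ± 0.22 in MIRKO, -0.46 ± 0.20 in MIGF1RKO (adjusted p = 0.38) and -0.27 ± 0.23 in QKO, none called.

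The lower values of Musk and Dok7 in MIGIRKO depend on the scaling of the libraries. Scaling factors were 1.17 to 1.32 in MIGIRKO and 0.866 to 0.887 in IRIGFRlox. With library totals and no scaling factor, the median of all genes in that comparison moved to 0.53, and 7002 of the 13646 tested genes were called. Musk then had a log2 change of -0.34 (adjusted p = 0.22) and Dok7 of -0.09 (adjusted p = 0.72). The 10 genes split into 6 higher and 0 lower. The calls of Chrna1, Chrnb1, Chrnd and Chrng held under both scalings.

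Lrp4 (ENSMUSG00000027253, chromosome 2, 91457511 to 91513779, plus strand), the agrin receptor gene, was not called in any knockout against its own controls by edgeR with scaled totals. In MIGIRKO it was at 23.3, 48.4 and 50.5 CPM (lowest, median and highest), against 39.2, 43.8 and 28.4 CPM in IRIGFRlox (log2 change 0.25 ± 0.19, adjusted p = 0.30). The lowest value was that of the library labelled MIGIRKO 6, and without it and the library labelled MIRKO 4 the gene was called higher (0.39, adjusted p = 0.033), as it was with library totals only (0.75, adjusted p = 0.0041) and against all 12 floxed libraries (0.31, adjusted p = 0.046). Rapsn (ENSMUSG00000002104, chromosome 2, 91035620 to 91045729, plus strand), whose protein clusters the receptor, was at 20.1, 26.4 and 35.8 CPM in MIGIRKO, against 35.0, 30.6 and 24.2 CPM in IRIGFRlox (log2 change -0.20 ± 0.20, adjusted p = 0.46), and its log2 changes in the other 3 knockouts lay between -0.10 and 0.21 with no call.

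Ache (ENSMUSG00000023328, chromosome 5, 137287519 to 137294466, plus strand) encodes acetylcholinesterase, which breaks down the transmitter in the synaptic cleft. In MIGIRKO it was at 55.1, 98.9 and 127 CPM (lowest, median and highest), against 62.1, 78.6 and 57.1 CPM in IRIGFRlox. The ranges overlapped through the library labelled MIGIRKO 6, and the rise was the smallest of the 5 that were called higher (log2 change 0.56 ± 0.20, adjusted p = 0.028). It was lost without MIGIRKO 2 or 5 or IRIGFRlox 1 or 3, at adjusted p of 0.063 to 0.13, and without the 2 doubtful libraries it was 0.68 (adjusted p = 0.0036). The log2 change was 0.36 ± 0.21 in MIRKO, 0.51 ± 0.19 in MIGF1RKO and 0.41 ± 0.23 in QKO, none called; 98 exon bases of Ache, 2.1% of its exons, overlap the RNA Gm42456 on the opposite strand, and the strand setting of the counting was not given.

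**Figure D3:**
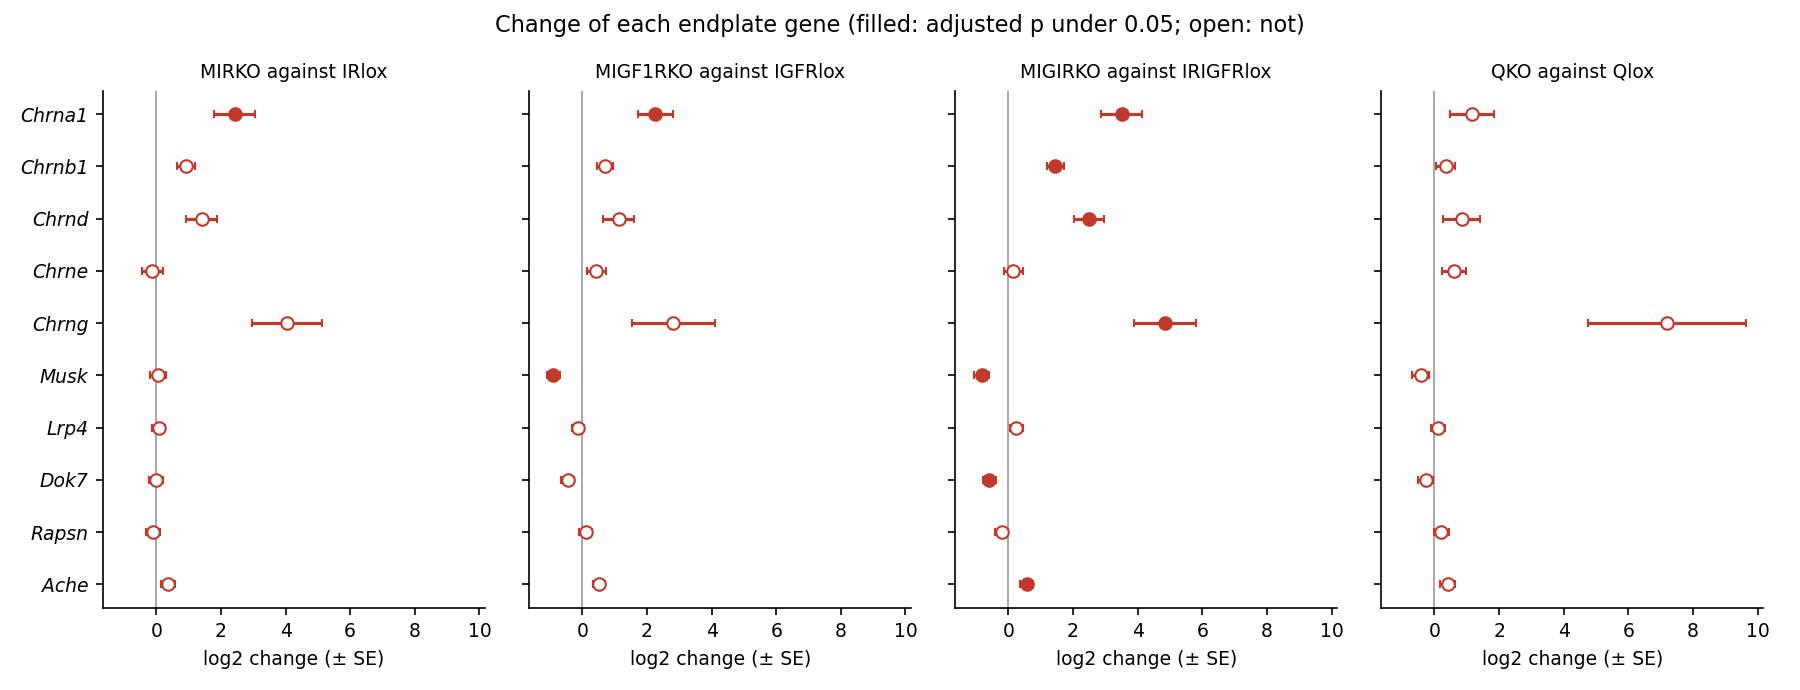
Log2 change of each gene (x axis, point with its standard error) in the 4 knockouts against their own floxed controls, filled where the adjusted p was under 0.05. MIGIRKO has 7 filled points, MIGF1RKO 2, MIRKO 1 and QKO 0; the Chrng point of QKO is a fit against controls at 0 counts and is no measure of size.

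Counting genes whose groups did not overlap at all gave a similar order of genotypes. In MIGIRKO, 4 genes were higher in every library (Chrna1, Chrnb1, Chrnd and Chrng), where 15.2% of all genes were, and 1 was lower in every library (Musk), where 14.8% were. In MIRKO, 3 were higher (Chrna1, Chrnb1 and Chrng), where 7.88% of all genes were, and 0 were lower, where 8.23% were. In MIGF1RKO, 2 were higher (Chrna1 and Chrng), where 2.45% were, and 1 was lower (Musk), where 2.69% were. In QKO all 10 overlapped with Qlox, where 3.91% of all genes were higher in every library and 5.86% lower.

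Whether the change differed between QKO and MIGIRKO was tested as the QKO change minus the MIGIRKO change, each against its own controls. With all libraries edgeR called 0 of the 10, against 5.76% of all genes (3.61% higher and 2.15% lower); 3 had an unadjusted p under 0.05 and DESeq2 called 1. The differences were -2.36 ± 0.84 for Chrna1 (adjusted p = 0.092), -1.10 ± 0.38 for Chrnb1 (adjusted p = 0.081) and -1.65 ± 0.75 for Chrnd (adjusted p = 0.20). Without the 2 doubtful libraries all 3 were called lower, against 9.78% of all genes called, at -2.56 (adjusted p = 0.0018), -1.22 (adjusted p = 0.0049) and -1.81 (adjusted p = 0.039). For Chrng the difference with all libraries had the other sign (2.35 ± 3.55, adjusted p = 0.76). It comes from a fit against Qlox controls at 0 counts and is no measure of size.

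Directly against MIGIRKO, QKO had 6 of the 10 called, against 30.2% of all genes (16.2% higher and 14.0% lower). Chrna1, Chrnb1, Chrnd and Chrng were lower in QKO, with log2 differences of -2.23 ± 0.42, -1.14 ± 0.19, -1.62 ± 0.33 and -2.09 ± 0.55. Musk (0.54 ± 0.18, adjusted p = 0.026) and Dok7 (0.52 ± 0.16, adjusted p = 0.013) were higher in QKO. With library totals alone, the median of all genes moved to -0.41, and 6649 of the 13646 tested genes were called. Musk and Dok7 were then 0.15 and 0.12 and not called, and Lrp4, Rapsn and Ache were called lower. Without the 2 doubtful libraries 8 were called, against 31.3% of all genes, with Lrp4 (-0.47, adjusted p = 0.0015) and Ache (-0.44, adjusted p = 0.013) also lower and Musk at the threshold (0.45, adjusted p = 0.050); leaving out only the library labelled MIGIRKO 6, Musk lost its call (adjusted p = 0.067). All 10 genes overlapped between the 2 groups, where 4.88% of all genes were higher and 2.53% lower in every QKO library. The colonies differ, so genotype and colony cannot be told apart here.

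The MIGIRKO change was also set against that of each single receptor knockout. Minus the MIRKO change, edgeR called 0 of the 10 and 0% of all genes, and DESeq2 and limma-voom also called 0 of the 10. An unadjusted p under 0.05 was found for 1, Musk (-0.87 ± 0.34), and there were differences of 1.09 ± 0.80 for Chrna1 and 1.09 ± 0.66 for Chrnd. Without the 2 doubtful libraries, Chrna1 (2.48, adjusted p = 0.0064), Chrnb1 (1.07, adjusted p = 0.029) and Chrnd (1.99, adjusted p = 0.028) were called higher, against 3.37% of all genes called. Minus the MIGF1RKO change, edgeR called 0 of the 10, against 8.58% of all genes (3.67% higher and 4.91% lower), with 2 at an unadjusted p under 0.05 (Chrnb1 and Chrnd) and 0 called by DESeq2 or limma-voom, and without those 2 libraries the same 3 subunit genes were called higher, Chrna1 by 1.46 (adjusted p = 0.040), Chrnb1 by 0.87 (adjusted p = 0.025) and Chrnd by 1.52 (adjusted p = 0.044), against 12.1% of all genes called.

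The identifiers that the titles give beside the library numbers fall into 6 runs of close numbers, parted by larger gaps. The labels do not say what the runs stand for. Within a run, knockout and control could be set against each other singly. For Chrna1 the within-run log2 differences were 4.04, 3.05 and 1.27 in MIGIRKO, the last from the library labelled MIGIRKO 6, 1.94 in MIRKO, 2.43, 1.25 and 2.11 in MIGF1RKO, and 0.21 and 1.72 in QKO. For Musk they were -0.43, -0.80 and -1.33 in MIGIRKO, 0.00 in MIRKO, -0.95, -0.59 and -1.01 in MIGF1RKO, and -0.36 and -1.01 in QKO. For Dok7 in MIGIRKO they were -1.05, -0.48 and 0.19. The direction of Chrna1 and of Musk in MIGIRKO and MIGF1RKO was thus the same in every run with both groups, and that of Dok7 was not.

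Levels of the genes can be compared with each other only per exon length. Over the 12 floxed libraries the order in CPM per kilobase of exon was Chrne (15.6 ± 3.56), Ache (13.2 ± 2.03), Rapsn (12.9 ± 2.98), Chrnb1 (11.0 ± 1.71), Musk (8.65 ± 4.20), Dok7 (7.68 ± 2.13), Chrna1 (5.03 ± 1.02), Lrp4 (3.42 ± 0.492), Chrnd (1.07 ± 0.360) and Chrng (0.0776 ± 0.0868; all SD). From Chrne to Dok7, neighbours differed by less than the larger of their SDs. The place of Musk depends on the group, at 4.41 CPM per kilobase in IRlox, below Dok7 (5.91) and Chrna1 (5.60), and 13.3 CPM per kilobase in IGFRlox, below only Chrne (15.2). The ranges of Lrp4 (2.71 to 4.17), Chrnd (0.506 to 1.88) and Chrng (0 to 0.293) did not overlap. In MIGIRKO Chrna1 headed the order at 53.3 ± 22.4 CPM per kilobase (SD, n = 6), followed by Chrnb1 at 32.6 ± 8.04 CPM per kilobase.

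**Figure D4:**
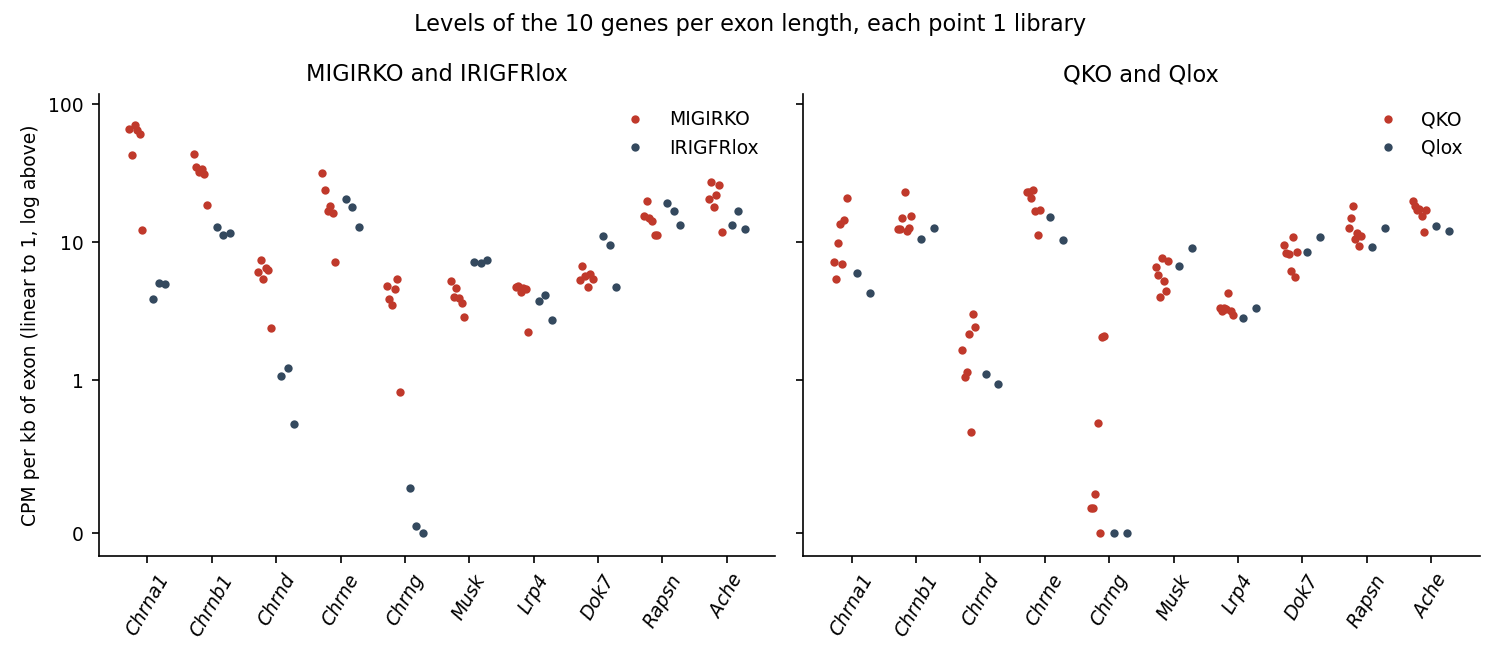
Level of each gene per exon length (CPM per kilobase, axis linear to 1 and logarithmic above), 1 point per library, for MIGIRKO (red) and IRIGFRlox (dark) on the left and QKO (red) and Qlox (dark) on the right. Chrna1 averages 53.3 CPM per kilobase in MIGIRKO and 4.67 CPM per kilobase in IRIGFRlox, and 11.2 CPM per kilobase in QKO and 5.14 CPM per kilobase in Qlox.

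Over all 34 libraries, Chrna1, Chrnb1, Chrnd and Chrng varied together, with Pearson's r of log2 CPM between 0.875 and 0.924 for every pair. Chrne varied with them less (0.219 to 0.319), and Musk ran against them (-0.501 to -0.397). These values describe libraries that share groups, depth and scaling, so they carry no test. The genes most like Chrna1 in all 34 libraries were Igf2 (0.948), a fetal growth factor gene, Chrna9 (0.926), a further acetylcholine receptor subunit gene, Ccdc141 (0.92), Sln (0.912), whose product inhibits the calcium pump, and Peg3 (0.912), an imprinted gene. The genes most like Musk were Cep85l (0.784), Map2k7 (0.758), Vps13d (0.757), Sra1 (0.752) and Ptpn11 (0.751).

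Genes that respond to denervation or inactivity formed the further list with the largest share of calls in MIGIRKO among those of the junction. Of 21 tested genes 13 were higher and 5 lower, where 17.0% of all tested genes were higher and 16.7% lower. The median log2 change of the list was 1.5, against 0.04 over all genes. Without the 2 doubtful libraries 14 were higher and 5 lower, where 33.3% of all genes were called. Myog, the myogenic factor myogenin, was at 16.2 to 31.8 CPM in MIGIRKO, against 1.5 to 3.21 CPM in IRIGFRlox (log2 change 3.27 ± 0.47, adjusted p = 6.6e-06), and Scn3b, a sodium channel subunit gene, rose by 2.14 ± 0.32. Dach2, which represses myogenin transcription, was called lower with 2 counts in all 6 MIGIRKO libraries, against 64 in the 3 IRIGFRlox libraries (adjusted p = 4.2e-06), and Mef2c, a transcription factor of muscle fibers, fell as well (-1.0 ± 0.16). At 0 to 0.16 CPM in MIGIRKO, Dach2 passed the filter on low counts through groups where it was higher and so had to differ among groups.

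In MIRKO, 5 of the 21 were higher and 0 lower, where 0.381% of all tested genes were higher and 0.865% lower. The 5 were Scn3b (1.69 ± 0.33), Ncam1 (1.19 ± 0.27), an adhesion molecule of denervated fibers, Myog (2.07 ± 0.47), Runx1 (2.21 ± 0.51), a transcription factor induced by denervation, and Cdkn1a (1.69 ± 0.41), named after its values were seen. Without the 2 doubtful libraries 1 was called, Scn3b (1.77 ± 0.35, adjusted p = 0.018), against 0.249% of all genes, and the other 4 log2 changes were 2.11 ± 0.55 for Runx1, 1.01 ± 0.27 for Ncam1, 1.33 ± 0.40 for Myog and 1.04 ± 0.35 for Cdkn1a, with adjusted p of 0.11 to 0.21. In MIGF1RKO, 1 was higher, Scn3b (1.53 ± 0.29, adjusted p = 0.0065), where 0.264% of all tested genes were higher. Sln was called as well without the 2 doubtful libraries (adjusted p = 0.044), against 1.2% of all genes called. In QKO, 1 was higher, Myod1, a myogenic factor (2.20 ± 0.53, adjusted p = 0.048), where 0.0513% of all tested genes were higher. Myog, at 3.49 to 12.2 CPM in QKO against 0.984 to 1.60 CPM in Qlox, was not called (adjusted p = 0.15).

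The 24 further genes of agrin and MuSK signalling had 7 higher and 4 lower in MIGIRKO, where 17.0% of all tested genes were higher and 16.7% lower, with a median log2 change of 0.11. Pak1, a kinase downstream of MuSK (-1.23 ± 0.24), Dvl1, a MuSK-binding adaptor (-0.64 ± 0.13), and Dnaja3, a chaperone that binds MuSK (-0.56 ± 0.11), fell, and Cdk5r1, the activator of the kinase CDK5, rose (1.92 ± 0.39). Cdk5r1 had 20 to 40 counts per MIGIRKO library, against 5 to 6 in IRIGFRlox, and was at or under 1.37 CPM in all floxed libraries. It passed the filter on low counts through knockout groups and so had to differ among groups. Agrn, the agrin gene, was at 36.4 to 58.3 CPM in MIGIRKO, against 32.1 to 44.9 CPM in IRIGFRlox (log2 change 0.23 ± 0.17, adjusted p = 0.29). None of the 24 was called in MIRKO, MIGF1RKO or QKO; the smallest adjusted p was that of Cdk5r1 in each (0.094, 0.38 and 0.25), with log2 changes of 1.38 ± 0.43, 1.0 ± 0.43 and 1.68 ± 0.59.

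Of 25 genes of the endplate matrix and cytoskeleton, 7 were higher and 8 lower in MIGIRKO, where 33.7% of all tested genes were called. The median log2 change of the list was -0.05. Among the 8 lower genes were Scn4a, the muscle sodium channel concentrated at the junction (-1.07 ± 0.16), Fgfbp1, a growth factor binding protein gene (-4.49 ± 0.74), and Dtna, or alpha-dystrobrevin (-0.75 ± 0.13). In MIRKO 1 was called, Fgfbp1 (-4.17 ± 0.81, adjusted p = 0.0088), against 1.25% of all genes. In QKO 1 was called, Syne1, whose product anchors nuclei (-0.66 ± 0.14, adjusted p = 0.018), against 0.506% of all genes. In MIGF1RKO none was called (smallest for Fgfbp1, -2.47 ± 0.71, adjusted p = 0.11), although Dmd, the dystrophin gene, was called without the 2 doubtful libraries (-1.13 ± 0.24, adjusted p = 0.012). Fgfbp1 rests on 4 counts in all MIGIRKO and 4 in all MIRKO libraries, against 46 in IRIGFRlox and 55 in IRlox. IRlox 3 holds 41 of those 55, and without it the MIRKO call was lost (-3.23 ± 0.93, adjusted p = 0.12). In MIRKO, MIGF1RKO and MIGIRKO, Fgfbp1 was at 0 to 0.99 CPM. It passed the filter on low counts mainly through control libraries and so was bound to differ among groups. Colq, which tethers acetylcholinesterase to the matrix, had a log2 change of 0.30 ± 0.20 in MIGIRKO (adjusted p = 0.27).

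Of 12 genes of synapse-specific transcription, 10 were tested. In MIGIRKO 4 were higher and 1 lower, where 17.0% of all tested genes were higher and 16.7% lower. None was called in the other 3 knockouts. The smallest adjusted p there was that of Erbb2 in MIRKO (0.80 ± 0.27, adjusted p = 0.12), Etv5 in MIGF1RKO (0.40 ± 0.20, adjusted p = 0.51) and Erbb2 in QKO (-0.41 ± 0.29, adjusted p = 0.60). In MIGIRKO the ETS factor gene Etv5 (1.40 ± 0.22) and the neuregulin receptor genes Erbb2 (1.25 ± 0.25) and Erbb3 (0.72 ± 0.22) rose, and the kinase gene Mapk8 fell (-0.46 ± 0.13). Erbb2 and Erbb3 are also made by Schwann cells. Of 11 acetylcholine receptor subunits known mainly from neurons and sensory cells, 4 passed the filter on low counts, and Chrna9 rose (5.24 ± 1.25, adjusted p = 0.0022) and Chrna2 fell (-2.41 ± 0.80, adjusted p = 0.020) in MIGIRKO. Chrna2 rests on 7 counts in all MIGIRKO libraries, against 17 in IRIGFRlox (0 to 0.681 CPM against 0.854 to 1.22 CPM). It passed the filter through other groups, such as IGFRlox (up to 2.85 CPM), and so had to differ among groups. Chrna9 was at 0.545 to 37.6 CPM in MIGIRKO, against 0.191 to 0.609 CPM in IRIGFRlox, so the groups overlapped slightly. It was at 3.22 to 12.1 CPM in MIGF1RKO, against 0 to 0.208 CPM in IGFRlox, and at 0.939 to 30.2 CPM in MIRKO, against 0 to 0.166 CPM in IRlox, in both cases without overlap and without a call (adjusted p of 0.079 and 0.058). Chrna9 was called in MIGF1RKO without the 2 doubtful libraries (adjusted p = 0.00063) but not in MIRKO. In QKO it was at 0.725 to 7.13 CPM, with both Qlox libraries at 0 (adjusted p = 0.39). Chrna9 was at or under 0.609 CPM in all floxed libraries. Like Chrng, it passed the filter on low counts through its high groups and so had to differ among groups.

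Set directly against MIGIRKO, QKO had 3 of the 21 denervation genes called higher and 10 lower, where 16.2% of all tested genes were higher and 14.0% lower, with Myog (-1.86 ± 0.31) and Myh8, the perinatal myosin gene (-2.96 ± 0.62), lower and Mef2c (1.15 ± 0.13) higher. Of the 24 agrin and MuSK genes 4 were higher and 8 lower, with Pak1 (1.05 ± 0.21) and Dnaja3 (0.41 ± 0.09) higher and the kinase gene Fyn (-0.62 ± 0.12) lower. Of the 25 endplate matrix genes 8 were higher and 7 lower, and Dtna (0.76 ± 0.11), Scn4a (0.73 ± 0.13) and Prima1, the membrane anchor of acetylcholinesterase (2.95 ± 0.47), were higher. Of the synapse-specific transcription genes 2 were higher and 4 lower, and Etv5 (-1.24 ± 0.16), Erbb2 (-1.41 ± 0.19) and Erbb3 (-1.05 ± 0.18) were lower. Muscle fiber markers had 8 of 10 higher and 1 lower in that comparison, Schwann cell markers 0 higher and 7 of 10 lower, and adipocyte markers 0 higher and 6 of 6 lower. Fibroblast markers had 0 higher and 4 of 6 lower, and satellite cell markers 0 higher and 4 of 9 lower. Immune cell markers had 0 of 6 tested called (median log2 change -0.34) and endothelial markers 0 of 5. The part of these markers in the result was not tested.

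Marker genes of other cells moved in MIGIRKO against IRIGFRlox, where 17.0% of all tested genes were higher and 16.7% lower. In MIGIRKO, 8 of 10 Schwann cell markers were higher and 0 lower, among them the myelin gene Mbp (1.41 ± 0.38), and their summed level was 406 to 758 CPM, against 203 to 306 CPM in IRIGFRlox. The other floxed groups overlapped MIGIRKO in that sum, at 365 to 578 CPM in IRlox, 330 to 664 CPM in IGFRlox and 464 to 735 CPM in Qlox. Immune cell markers had 5 of 6 tested higher (318 to 1100 CPM in sum, against 104 to 145 CPM), adipocyte markers 6 of 6 (219 to 994 CPM, against 64.2 to 69.8 CPM), fibroblast markers 5 of 6 (3260 to 5940 CPM, against 1930 to 3450 CPM) and satellite cell markers 4 of 9 (2070 to 3440 CPM, against 2240 to 2730 CPM). Endothelial markers had 0 of 5 called (235 to 349 CPM, against 288 to 401 CPM; 0 of 5 in QKO, MIRKO and MIGF1RKO too). Of 10 muscle fiber markers 5 were lower and 0 higher, among them Myh4 (-1.47 ± 0.21) and Ckm (-1.46 ± 0.26), at 65400 to 106000 CPM in MIGIRKO, against 177000 to 199000 CPM in IRIGFRlox.

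Of 10 markers of motor axons, 9 were too low to test, and Chat and Slc18a3, which define cholinergic neurons, had no count in any of the 34 libraries; the 10 summed to 2.41 to 3.97 CPM in MIGIRKO, against 1.22 to 3.83 CPM in IRIGFRlox. No marker list had a called gene in MIRKO, MIGF1RKO or QKO, although the summed immune markers reached 2480 CPM in 1 QKO library and lay at 346 to 899 CPM in MIRKO, against 200 to 252 CPM in IRlox. Schwann, immune, fat and fibroblast markers rose together with the receptor subunits in MIGIRKO, and their part in the result was not tested. In bulk muscle, fewer cells of a type and less RNA per cell cannot be told apart.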

How the data were processed

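The deposited table holds raw counts per Ensembl gene for 34 libraries, 1 column each. Per the submitters' processing notes, STAR, featureCounts and GRCm38.p4 were used; versions, annotation release and strand setting are not given in the sources used here, and per the labels' protocols the kit was directional. The authors deposited counts without normalization. Groups come from the labels. Nothing there says which libraries share a litter, and p-values measure the spread between these libraries.

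Of 46071 genes, 45229 matched a symbol in the GRCm38 annotation. edgeR 4.0.16 (R 4.3.3) kept 13646 by filterByExpr, scaled totals by trimmed mean of M values (TMM), and fitted 1 mean per group to all 34 libraries by robust quasi-likelihood. P-values were adjusted by Benjamini and Hochberg's method across the whole set of tested genes; called means under 0.05. The SE of a log2 change was taken as its absolute value divided by the root of F. Promoter sequences are from RefSeq. Alternatives included DESeq2 1.42.0 and limma 3.58.1 (voom). Procedures were tested on simulated data. Depth of 1499025 to 7581198 counts limits the precision of Chrng and Chrnd most. Shares carry 95% Wilson intervals; intervals and floors cover counting error only, since reads without molecular identifiers are not independent molecules.

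The 10 genes and all lists were chosen with earlier results of these data known. Named genes are the 10, up to 4 called members per list and comparison with the smallest adjusted p (in junction lists with none called, the 1 with the smallest), the targeted genes, and the 5 genes most correlated with Chrna1 and with Musk. Some genes that this rule picks from the lists are not reported here. Agrn, Colq, Dmd and Sln, and repeats of Myog, were named besides, after their values were seen. The differences of the MIGIRKO change from the MIRKO and MIGF1RKO changes were added after the data were seen, as were the counts over lists without the 2 doubtful libraries and the fit of Fgfbp1 without IRlox 3.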

Additional observations from a re-analysis of the deposited data

Results flagged for a closer look

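In groups of 4 to 10 libraries, 7 of the 50 sets of values of the 10 genes had a highest or lowest library set apart from the rest by Dixon's test at 95%; chance gives about 1 in 20. The library labelled MIRKO 4 accounts for 3 of them. Its Chrna1 was 354 CPM, where the other MIRKO libraries had 54.0 to 61.5 CPM, its Chrnb1 was 96.5 CPM, where they had 38.9 to 46.5 CPM, and its Chrng was 21.0 CPM, where they had 2.67 to 3.94 CPM. In all 3 genes its values lay within or above the MIGIRKO range.

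Lrp4 in the library labelled MIGIRKO 6 was 23.3 CPM, below the 45.6 to 50.5 CPM of the other MIGIRKO libraries. Lrp4 in QKO 5, the library with the fewest counts, was 45.0 CPM, above the 31.4 to 35.3 CPM of the other QKO libraries. Chrnb1 in QKO 4 was 59.1 CPM, above the 30.5 to 39.3 CPM of the others. Chrna1 in IGFRlox 4 was 24.9 CPM, where the other IGFRlox libraries had 19.5 to 20.4 CPM.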

How the results depend on the processing

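In MIGIRKO, the calls of Chrna1, Chrnb1, Chrnd and Chrng held in all 20 alternatives, which include leaving out each library; Musk kept its call in 19, Dok7 in 17 and Ache in 15. Over the 4 knockout comparisons, 717 of 780 values of a gene under an alternative kept call and direction, 43 lost the call, 19 gained one and 1 reversed: Musk in MIRKO against all 12 floxed libraries (-0.94). A further 29 changed sign while never called. In the other comparisons 1018 of 1050 kept both, 7 lost and 25 gained a call, and 33 changed sign while never called.

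The number called in MIRKO was 3 with DESeq2, 3 with library totals only, 5 with all 12 floxed libraries and 2 without QKO 5 and QKO 6. Of all tested genes, those settings called 371, 279, 2830 and 400, against 170 in the main fit. It was 0 with limma-voom, no low-count filter, a CPM minimum of 1 in 3 samples and library runs as a block. Those settings called 189, 102, 155 and 74 of all genes. It was also 0 with the compared groups only (9 of all genes) and without the 2 doubtful libraries (34 of all genes). Leaving out single libraries gave 0 to 3, where 13 to 369 of all genes were called. In MIGF1RKO it was 1 with limma-voom, no low-count filter, the CPM filter, all 12 floxed libraries and without QKO 5 and QKO 6. Those settings called 73, 66, 80, 244 and 93 of all genes, against 84 in the main fit. It was 0 with library runs as a block (72 of all genes) and with library totals only (66). It was 3 with the compared groups only (205) and without the 2 doubtful libraries (164). Leaving out single libraries gave 0 to 2 (32 to 80 of all genes). In QKO it was 1 with DESeq2 (142 of all genes) and 2 with all 12 floxed libraries (1084), against 69 of all genes in the main fit. It was 0 whichever library was left out (21 to 85 of all genes). For the QKO change minus the MIGIRKO change it was 1 with DESeq2 (1091 of all genes) and 1 with library runs as a block (539). It was 2 with library totals only (1404) and 3 without the 2 doubtful libraries (1334), and the main fit called 786 of all genes. Single libraries gave 0 to 2 (114 to 1378 of all genes). For the MIGIRKO change minus the MIRKO change it was 3 without the doubtful ones (460 of all genes, and 0 in the main fit). Minus the MIGF1RKO change it was 2 with library totals only (2167 of all genes) and 3 without the doubtful ones (1647), against 1171 in the main fit. In MIGIRKO, leaving out single libraries gave 5 to 7 (3109 to 4548 of all genes), and QKO against MIGIRKO also 5 to 7 (3503 to 5365 of all genes). Apart from settings that enter fewer libraries or genes by construction, the cause was not tested.

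No paired analysis was possible because nothing marks which mice were littermates; title numbers are library numbers. Limits are the 2 Qlox libraries, the low counts of Chrng, and the labels of 2 libraries. Without MIRKO 4 the Chrna1 call in MIRKO was lost (1.24, adjusted p = 0.30), as without MIRKO 3 (adjusted p = 0.059) or any IRlox library (0.12 to 0.19). In MIGF1RKO the Musk call was lost without MIGF1RKO 1, 2 or 3 or IGFRlox 2, 3 or 4 (adjusted p 0.071 to 0.18).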
